A study of Homo sapiens with 12 samples.

Results

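The human mitochondrial genome carries 37 genes, and every one of them was found in the deposited RNA-seq table of MV4-11 cells by a symbol that starts with MT-. They are 37 of 43876 genes in the table, namely 13 mRNA genes, 2 rRNA genes and 22 tRNA genes. MV4-11 is an established human acute myeloid leukemia cell line with FLT3-ITD, an activating internal tandem duplication of the FLT3 receptor. The cells were collected 24 h after 1 of 4 treatments. Mito-Lipo was 20 nM mitoxantrone-liposome, a topoisomerase II poison in liposomes (the sample labels name mitoxantrone). Gilteritinib, a FLT3 kinase inhibitor, was used at 25 nM alone. Com combined 20 nM mitoxantrone-liposome with 20 nM gilteritinib, and DMSO was the vehicle control. Each condition had 3 libraries, numbered 1 to 3. The labels do not say whether these came from separate cultures, so p-values measure the spread between libraries, which may be technical. All cells are of 1 line, and gilteritinib was given at different doses alone and in Com.

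The mitochondrial genome is a small circle whose both strands, called heavy and light, are transcribed from promoters in a noncoding control region into long precursors that span many genes. The tRNAs lie between most of the other genes, and the precursors are cut at the tRNA ends by RNase P and ELAC2. The mRNAs are then polyadenylated, and for several of them the added A completes the stop codon. The 13 proteins are core subunits of the respiratory chain and of ATP synthase, and the 22 tRNAs and 2 rRNAs serve only their translation inside the organelle. AML cells are known to lean on oxidative phosphorylation.

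The measured values are FPKM, which divide the fragments of a gene by its length and by the depth of the library. This sets genes of unlike length on 1 scale, but not the tRNA genes, which are only 59 to 75 bases long. Precursors can also lend them fragments, so their FPKM cannot be read as levels of mature tRNA or be set beside those of mRNAs. Per the labels the cDNA was made from mRNA of a total RNA extract. With the gene lengths of GENCODE release 29, all 37 genes came out at whole numbers of fragments in all 12 libraries, with a largest deviation of 0.0029 fragment. This gave library totals of 31725014 fragments (Mito-Lipo replicate 2) to 41330654 (Gilteritinib replicate 1), of which 271407 to 695876 were mitochondrial. The line's own markers were present, for example FLT3 at an FPKM of 132 to 171 and LYZ at 490.4 to 1333. Markers of T cells (CD3E), erythroid cells (HBG1), epithelium (EPCAM) and fibroblasts (COL1A1) stayed at or under 0.0894. Replicate 1 stood apart from replicates 2 and 3 over the whole table, with 34096 to 35060 genes above 0 against 32494 to 33768. What the replicate numbers mean is not given in the labels.

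The tRNA genes on which the results turn are shown with their anticodons in capitals, 5′ to 3′ in the DNA letters of GENCODE release 29 (GRCh38). MT-TT and MT-TC had the highest FPKM of the tRNA genes, and MT-TY shares 1 base with MT-TC. MT-TP came next and differed from them in replicate 1 over all 4 conditions. MT-TC (chrM:5761-5826), MT-TY (chrM:5826-5891) and MT-TP (chrM:15956-16023) are on the light strand, and MT-TT (chrM:15888-15953) is on the heavy strand, directly beside MT-TP.
MT-TC: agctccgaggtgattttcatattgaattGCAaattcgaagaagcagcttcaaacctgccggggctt
MT-TY: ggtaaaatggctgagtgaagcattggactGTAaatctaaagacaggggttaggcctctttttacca
MT-TT: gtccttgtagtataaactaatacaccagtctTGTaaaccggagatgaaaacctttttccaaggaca
MT-TP: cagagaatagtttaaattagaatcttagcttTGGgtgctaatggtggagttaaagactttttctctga

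Neighbouring genes touch or overlap, and this limits how far a value belongs to 1 gene. The last 90 bases of MT-ATP8 (chrM:8483-8572) are shown because their 46 capitals, which begin with an ATG, are also the start of MT-ATP6.
MT-ATP8 end: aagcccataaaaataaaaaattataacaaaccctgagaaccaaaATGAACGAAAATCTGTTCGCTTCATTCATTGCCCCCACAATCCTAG
The shared stretch is 22.2% of MT-ATP8 and 6.75% of MT-ATP6. The last 60 bases of MT-ND4L (chrM:10707-10766) end in 7 bases, in capitals, that open MT-ND4.
MT-ND4L end: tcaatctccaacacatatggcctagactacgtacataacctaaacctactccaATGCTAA
MT-TI and MT-TQ, on opposite strands, overlap by 3 bases. Of the 13 mRNA genes, 6 end inside a codon, with T or TA as their last bases, which polyadenylation extends to a stop. How the counting treated shared bases, strand and precursors is not given in the sources used here, so the values of neighbours are not independent.

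The mitochondrial genes took 0.705% to 1.84% of the fragments of a library, nearly all of it mRNA. The mRNA share was 0.696% to 1.83%, the rRNA share 0.00235% to 0.00661% and the tRNA share 0.00367% to 0.00919%. The rRNAs, the structural RNAs of the mitochondrial ribosome, are therefore represented here by only 744 to 2384 fragments per library, and the tRNAs by 1338 to 3477.

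**Figure D1:**
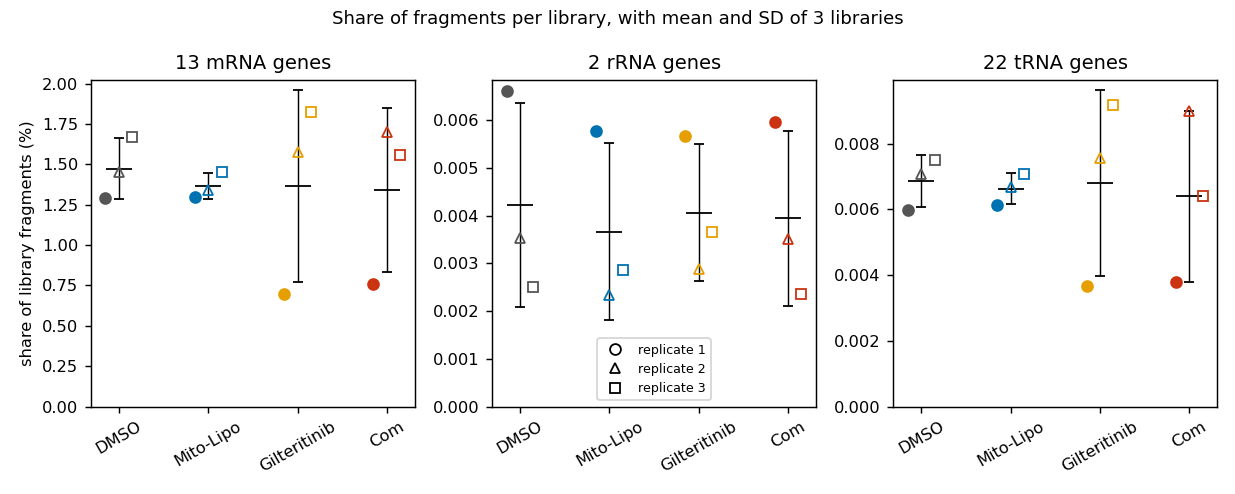
Share of each library's fragments (%, linear axes from 0) that fell on the 13 mRNA, 2 rRNA and 22 tRNA genes, by condition. Filled circles are replicate 1, open triangles replicate 2 and open squares replicate 3, with the mean and SD of 3 libraries in black. The mRNA share of replicate 1 is 0.696% in Gilteritinib and 0.762% in Com against 1.29% to 1.83% in the other 10 libraries, and the rRNA share is highest in replicate 1 of each condition.

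Among the mRNAs, MT-CO1, the catalytic subunit of cytochrome c oxidase (complex IV), was by far the most abundant. Its FPKM averaged 4577 over the 12 libraries (2513 to 5933), and it had rank 2 or 3 among all genes of the table in each library. MT-CO3 and MT-CO2, the other core subunits of complex IV, averaged 1152 and 745. MT-CYB, the cytochrome b of complex III, averaged 913. The complex I subunits ranged from MT-ND4 at 929 through MT-ND1 (676), MT-ND2 (577), MT-ND5 (532), MT-ND4L (509) and MT-ND6 (411) to MT-ND3 at 194. MT-ATP6, in the proton channel of ATP synthase (complex V), averaged 588 and MT-ATP8, its small partner, 98.6. MT-CYB, MT-ND4 and, lower down, MT-ATP6 and MT-ND2 were close neighbours in this order. The MT-CYB mean exceeded the MT-ND4 mean in Gilteritinib and Com and lay below it in DMSO and Mito-Lipo. In Gilteritinib, Com and DMSO the difference was smaller than the SD of either gene between the 3 libraries. In Mito-Lipo, where MT-ND4 averaged 939 (SD 21.9) and MT-CYB 879 (SD 42), it was larger than both SDs. Both genes were measured in the same libraries, so these SDs are not the spread of their difference. Within libraries, MT-ND4 was above MT-CYB in all 3 of DMSO and all 3 of Mito-Lipo. MT-CYB was above MT-ND4 in all 3 of Com, and in Gilteritinib the order differed between libraries. By complex, the sum of FPKM over the mRNAs was 50.6% to 57.7% complex IV, 29.9% to 35.4% complex I, 7.05% to 8.11% complex III and 5.18% to 6.27% complex V.

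The tRNA genes spanned a wide range. MT-TT (threonine) averaged an FPKM of 292, MT-TC (cysteine) 236, MT-TP (proline) 111, MT-TR (arginine) 84.9, MT-TG (glycine) 50.6 and MT-TH (histidine) 44.6. At the low end MT-TV and MT-TL1, which lie on either side of MT-RNR2, had 12 and 5 fragments in all 12 libraries together, and these 2 did not pass the filter for testing, which asked for 3 or more libraries with an FPKM of 1 or more. The other 35 members passed it, as did 18574 genes in all. MT-RNR2, the large-subunit rRNA, averaged 17.2 and MT-RNR1, the small-subunit rRNA, 13.5, both below every mRNA.

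The question of the treatment comparisons was whether either drug, or both together, moved the mitochondrial transcripts after 24 h. No member passed the test in any of them. MT-CO1 had FPKM of 4069, 4974 and 5315 in DMSO replicates 1 to 3. In Mito-Lipo it had 4015, 4356 and 4903. In Gilteritinib it had 2513, 5046 and 5933. In Com it had 2820.1, 5566 and 5409. The 3 values of every condition overlapped those of every other, and the drug conditions with gilteritinib held both the lowest values and the highest. Against DMSO the log2 fold change of MT-CO1 was -0.11 (SE 0.34) in Mito-Lipo, -0.17 (SE 0.34) in Gilteritinib and -0.11 (SE 0.34) in Com, with adjusted p of 0.976, 0.9999 and 1 (limma).

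MT-CO3 gave the same picture with a wider spread. Its FPKM was 934, 1209.7 and 1396 in DMSO replicates 1 to 3, and 933, 1169.5 and 1288 in Mito-Lipo. It was 473, 1462 and 1692 in Gilteritinib, and 466, 1554 and 1243 in Com. In both gilteritinib conditions replicate 1 was below every DMSO library, and in Gilteritinib the other 2 libraries were above every DMSO library. MT-ND6, the one mRNA encoded on the light strand and a complex I subunit, had 384, 443 and 541 in DMSO and 394, 409.9 and 453 in Mito-Lipo. It had 159, 484 and 554 in Gilteritinib, and 166, 515 and 423 in Com. MT-ATP8, the least abundant mRNA, had 103, 106 and 102 in DMSO and 114, 104 and 102 in Mito-Lipo, against 49.6, 108 and 136 in Gilteritinib and 49.3, 122 and 87.4 in Com. All 4 genes thus had their lowest values in replicate 1 of Gilteritinib and of Com.

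**Figure D2:**
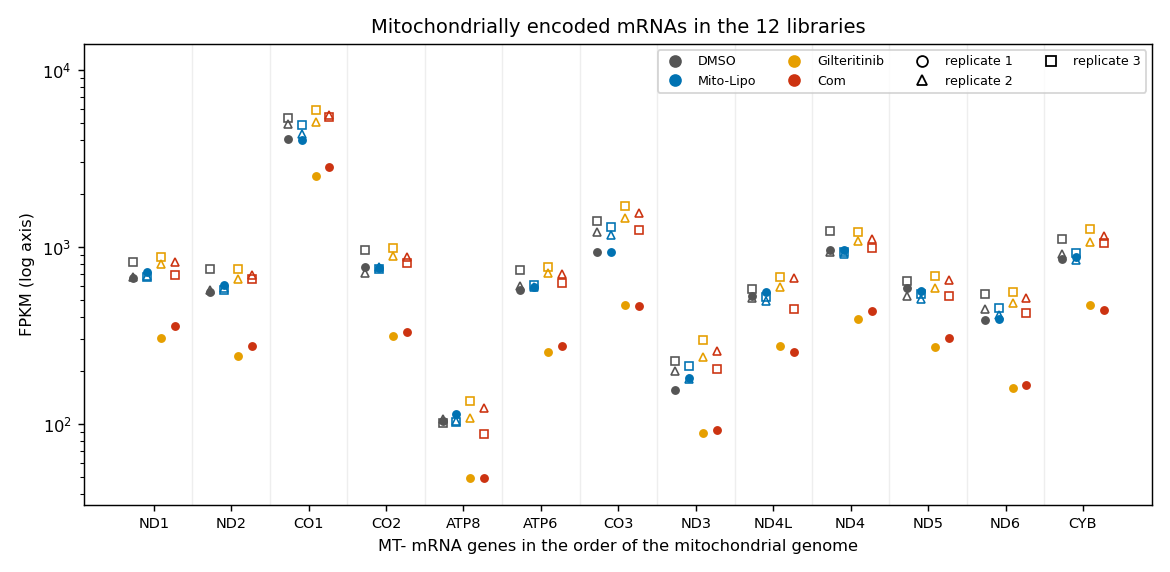
FPKM (log axis) of the 13 mitochondrially encoded mRNAs in each of the 12 libraries, in the order of the mitochondrial genome. Colours are conditions, filled circles replicate 1, open triangles replicate 2 and open squares replicate 3. For all 13 genes the filled circles of Gilteritinib and Com are the lowest points, and for no gene do the 3 libraries of 1 condition separate from those of another.

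In limma, with 1 mean per condition over 12 libraries and Benjamini-Hochberg adjustment over 18574 genes, 0 of 35 members had an adjusted p under 0.05 in the 6 comparisons between conditions and in the interaction (the effect of mitoxantrone-liposome with gilteritinib less its effect without). Of all genes, 0.00538% (1 gene) passed in Com against DMSO and 0 in the others. At an unadjusted p under 0.05, 1 of 35 members was found in Gilteritinib against DMSO (1.86% of all genes), 1 in Com against Gilteritinib (1.63%) and 0 in Mito-Lipo against DMSO (7.9%), Com against DMSO (1.67%), Com against Mito-Lipo (5.53%), Gilteritinib against Mito-Lipo (9.52%) and the interaction (2.91%). The 2 were tRNA genes. MT-TI (isoleucine) had FPKM of 11.3, 6.81 and 9.67 in DMSO against 2.45, 6.69 and 4.21 in Gilteritinib, groups that did not overlap, at a log2 fold change of -0.96 (SE 0.38, limma adjusted p = 0.9999). It rested on 7 to 28 fragments per library. MT-TP had 118, 111 and 137 in Gilteritinib against 88.2, 106 and 76.8 in Com, also without overlap, at -0.44 (SE 0.19, limma adjusted p = 0.9999).

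Counted by overlap alone, the mRNAs and rRNAs of any 2 conditions overlapped in all 6 pairs. Among the 20 tRNA genes tested, MT-TN did not overlap between Mito-Lipo and DMSO (13.6% of all genes did not), MT-TF and MT-TI between Gilteritinib and DMSO (6.57%), and MT-TP between Com and Gilteritinib (6.2%). None did in Com against DMSO (5.73%), nor against Mito-Lipo in Com (9.34%) and in Gilteritinib (14.4%). MT-TF (phenylalanine) had at most 4 fragments in a library.

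The median log2 fold change of the 13 mRNAs relative to DMSO was -0.08 for Mito-Lipo, -0.26 for Gilteritinib and -0.31 for Com, beside medians over all tested genes of 0.03, -0.03 and -0.01. These 3 comparisons share the DMSO libraries. All 13 mRNAs had values below 0 in the latter 2, and 1 library decided each. With Gilteritinib replicate 1 left out, the Gilteritinib median was 0.22 with all 13 above 0. With Com replicate 1 left out, the Com median was 0.07. With replicates 2 and 3 only, the medians were 0.16 and 0.02, and in Mito-Lipo -0.15. Taken within replicate numbers, the median log2 ratio of Gilteritinib to DMSO was -1.09 in replicate 1, 0.21 in replicate 2 and 0.09 in replicate 3. For Com it was -1.02, 0.29 and -0.24, and for Mito-Lipo 0.04, -0.05 and -0.26. The ratios to DMSO in replicate 1 were below 0 for 13 of 13 mRNAs in Gilteritinib and in Com, and in replicate 2 they were above 0 for 13 of 13 in both.

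The replicate number, not the treatment, was where members passed a test. In an additive limma fit of condition and replicate number, 24 of 35 members had an adjusted p under 0.05 in replicate 1 against replicates 2 and 3. Of all tested genes, 38.3% passed, 26.3% higher and 12.1% lower in replicate 1, with a median log2 fold change of 0.09. The members were 10 of 13 mRNAs and 12 of 20 tRNAs lower in replicate 1, and both rRNAs higher. The count depended most on the replicate 1 libraries with gilteritinib. It was 12 members without Gilteritinib replicate 1, 9 without Com replicate 1, and only the 2 rRNAs without both. Calls over all genes fell too, from 7123 to 5640, 5125 and 3005, and these fits have fewer libraries. In replicate 2 against replicate 3, 0 of 35 members passed (3 at an unadjusted p under 0.05, against 4.45% of all genes), and 0 of all genes did.

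The mRNAs that fell most in replicate 1 were MT-CO3 at -1.04 (SE 0.22, limma adjusted p = 0.00685), MT-ND6 at -0.92 (SE 0.24, adjusted p = 0.0170) and MT-ND3 at -0.86 (SE 0.22, adjusted p = 0.0144). MT-CO1 fell by 0.66 on the log2 scale (SE 0.16, adjusted p = 0.0121). MT-CO2, MT-ATP6, MT-ND2, MT-ND4, MT-CYB and MT-ND1 lay between -0.77 and -0.65, with adjusted p from 0.0273 to 0.0463. MT-ND5 (-0.51), MT-ND4L (-0.56) and MT-ATP8 (-0.55) did not pass, with adjusted p of 0.0793, 0.0774 and 0.0856. Genes of complexes I, III, IV and V were thus among those lower, on both strands.

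This difference was not spread evenly over the 4 conditions. The ratio of replicate 1 to the mean of replicates 2 and 3 had a median over the 13 mRNAs of 0.856 in DMSO (0.717 to 0.995) and 0.994 in Mito-Lipo (0.759 to 1.11). It was 0.345 in Gilteritinib (0.300 to 0.458) and 0.414 in Com (0.333 to 0.522). The ranges of the gilteritinib conditions do not reach those of the conditions without gilteritinib for any of the 13 genes. Replicate 1 was the lowest library in both Gilteritinib and Com for 13 of 13 mRNAs and 16 of 20 tRNAs (22.6% of all genes), and in both DMSO and Mito-Lipo for 4 of 13 mRNAs and 7 of 20 tRNAs (15.7%). A replicate 1 value at or under 0.5 of the other replicates in both Gilteritinib and Com was found for 11 of 13 mRNAs and 10 of 20 tRNAs, against 0.98% of all tested genes. The 2 mRNAs outside this limit were MT-CO1 (0.514 in Com) and MT-ND5 (0.522 in Com). Among the 1147 genes with a mean FPKM of at least 50, 20 met it (1.74%), and 12 of those 20 were mitochondrial. In DMSO and Mito-Lipo no member met it, against 0.721% of all genes and 0.436% of those with a mean FPKM of at least 50. The limit of 0.5 was chosen after these values were seen.

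The difference itself was tested with a limma fit in which replicate 1 had 1 effect in the 6 libraries with gilteritinib and another in the 6 without. This split follows the labels but was chosen after the pattern was seen. The replicate 1 effect on MT-CO2, for example, was -0.06 without gilteritinib and -1.47 with it, a difference of -1.41 (SE 0.16, limma adjusted p = 0.0878). For MT-CO1 it was -0.27 and -1.04, a difference of -0.77 (SE 0.17, limma adjusted p = 0.175). No member and no other gene passed after adjustment over 18574 genes. At an unadjusted p under 0.05, 24 of 35 members differed, all of them lower with gilteritinib, namely 13 of 13 mRNAs, 11 of 20 tRNAs and 0 of 2 rRNAs. Of all genes 12.3% did, 7.65% lower. The median difference was -1.23 over the mRNAs, -0.81 over the tRNAs, -0.19 over the rRNAs and -0.03 over all tested genes. Both conditions with gilteritinib have 1 replicate 1 library each, so a response to gilteritinib in replicate 1 and a property of those 2 libraries cannot be told apart. Neither can fewer cells rich in mitochondria and less mitochondrial RNA per cell, in bulk RNA. The depth of the 2 libraries, 41330654 and 35180975 fragments, was the highest of the 12 and near the middle.

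The rRNAs went the other way. MT-RNR1 had FPKM of 23.03 in replicate 1 of DMSO against 12.1 and 7.44 in replicates 2 and 3. In Mito-Lipo it had 20.7 against 7.996 and 8.71, in Gilteritinib 21.9 against 9.63 and 9.47, and in Com 20.9 against 12.01 and 7.84. MT-RNR2 had 28.3 against 15.3 and 11.6 in DMSO, 24.4 against 10.1 and 13.1 in Mito-Lipo, 22.9 against 12.6 and 17.6 in Gilteritinib, and 25.4 against 15.1 and 10.4 in Com. For both genes every replicate 1 library was above all 8 libraries of replicates 2 and 3. The log2 fold change in replicate 1 was 1.14 (SE 0.10, limma adjusted p = 0.000231) for MT-RNR1 and 0.90 (SE 0.14, adjusted p = 0.0019) for MT-RNR2. Replicate 1 was highest in all 4 conditions for both rRNAs, for 0 of 13 mRNAs and 0 of 20 tRNAs, and for 22% of all tested genes, so the rRNAs share their direction with many genes. The sum of rRNA FPKM was 0.401% to 0.772% of the sum of mRNA FPKM in replicate 1 and 0.132% to 0.221% in replicates 2 and 3. The rRNAs are a small part of the fragments, and these are levels in the libraries. What library preparation, mapping or counting did to the rRNA values was not tested.

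The tRNA genes were mostly lower in replicate 1, as the mRNAs were, but for several this was less confined to the gilteritinib conditions. MT-TC had FPKM of 234, 223 and 293 in DMSO and 188, 241 and 244 in Mito-Lipo. It had 82.1, 284 and 361 in Gilteritinib, and 106, 355 and 226 in Com. MT-TY, its neighbour, had 20.2, 24.3 and 32.2 in DMSO and 25.5, 25.3 and 33.7 in Mito-Lipo, against 6.23, 25.9 and 30.8 in Gilteritinib and 9.47, 28.0 and 28.0 in Com. Both had their lowest values in replicate 1 of the gilteritinib conditions. In replicate 1 against replicates 2 and 3, MT-TC fell by 0.96 on the log2 scale (SE 0.28, limma adjusted p = 0.0253) and MT-TY by 1.03 (SE 0.26, adjusted p = 0.0133). MT-TT, with 236, 347 and 294 in DMSO, 259.6, 285 and 317 in Mito-Lipo, 176, 309 and 373 in Gilteritinib and 177, 384 and 344 in Com, fell by 0.66 (SE 0.13, adjusted p = 0.00614). The others that fell were MT-TE, MT-TD, MT-TS2, MT-TH, MT-TK, MT-TA, MT-TR, MT-TG and MT-TS1, at -1.11 to -0.60. Their replicate 1 effects without gilteritinib ran from -1.04 (MT-TA) to -0.33 (MT-TH), beside a median of -0.07 over the mRNAs. With gilteritinib they ran from -1.67 (MT-TD) to -0.65 (MT-TS1), and MT-TA had -0.83. MT-TN, MT-TM, MT-TL2, MT-TQ, MT-TI, MT-TW, MT-TF and MT-TP did not pass.

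In replicate 1 over all 4 conditions, MT-TP stood apart among the tRNA genes with high FPKM. Its FPKM was 154, 93.1 and 116 in DMSO replicates 1 to 3, and 138, 96.0 and 100.5 in Mito-Lipo. It was 118, 111 and 137 in Gilteritinib and 88.2, 106 and 76.8 in Com. Replicate 1 was the highest library in DMSO and Mito-Lipo and lay between the other 2 in both gilteritinib conditions. Its replicate 1 effect was 0.53 without gilteritinib and -0.05 with it, a difference of -0.58 (SE 0.20, limma unadjusted p = 0.0225, adjusted p = 0.324). MT-TP is therefore among the 11 tRNAs lower with gilteritinib at an unadjusted p under 0.05, beside a difference of -0.67 for MT-TT. The log2 fold change in replicate 1 was 0.24 (SE 0.14, limma adjusted p = 0.193), on 181 to 379 fragments per library. Only 4 of the 35 members tested had a value above 0 in this comparison, MT-RNR1, MT-RNR2, MT-TF and MT-TP, and the other 31 lay below 0. On the circle these 4 lie next to the control region on its 2 sides, MT-TP last in the numbering and MT-TF, MT-RNR1 and MT-RNR2 at its start, with MT-TV, not tested, among them. MT-TT, directly beside MT-TP but on the other strand, fell. This grouping by position was noticed after the values were seen, and MT-TF (0.25, SE 0.23, adjusted p = 0.431, 23 fragments in all) and MT-TP did not pass.

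**Figure D3:**
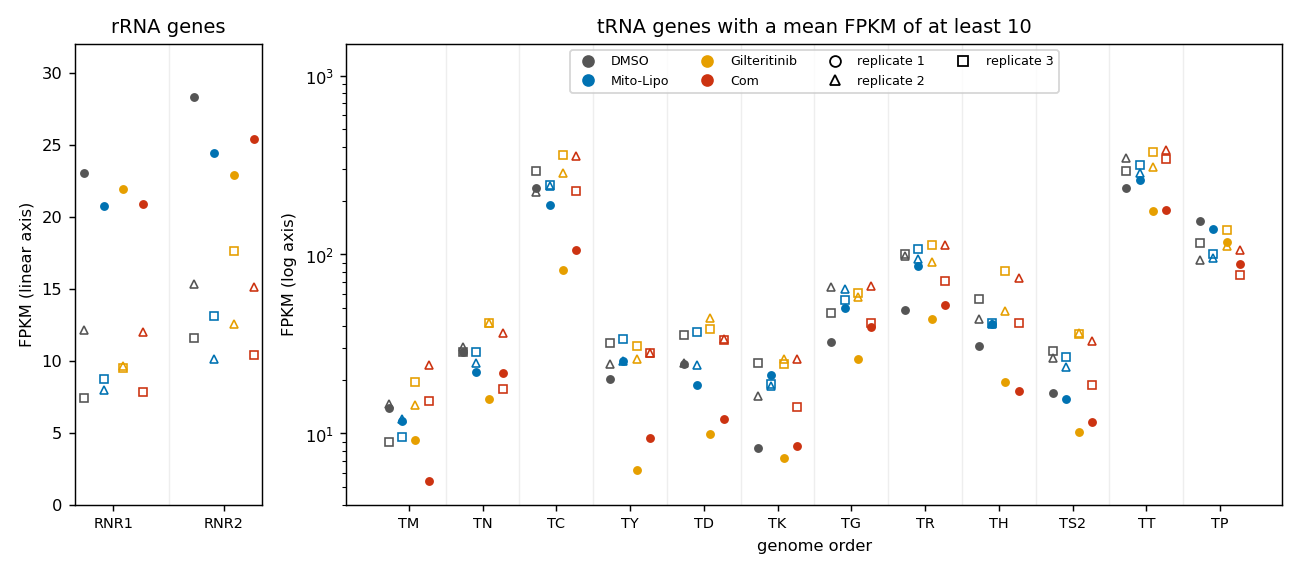
FPKM of the 2 rRNA genes (left, linear axis from 0) and of the 12 tRNA genes with a mean FPKM of at least 10 (right, log axis) in each library, with colours and symbols as in the plot of the mRNAs. Replicate 1 of both rRNAs is at 20.7 to 28.3 and the other libraries at 7.44 to 17.6, while MT-TC, MT-TY and MT-TD have their lowest points in replicate 1 of Gilteritinib and Com and MT-TP does not.

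**Figure D4:**
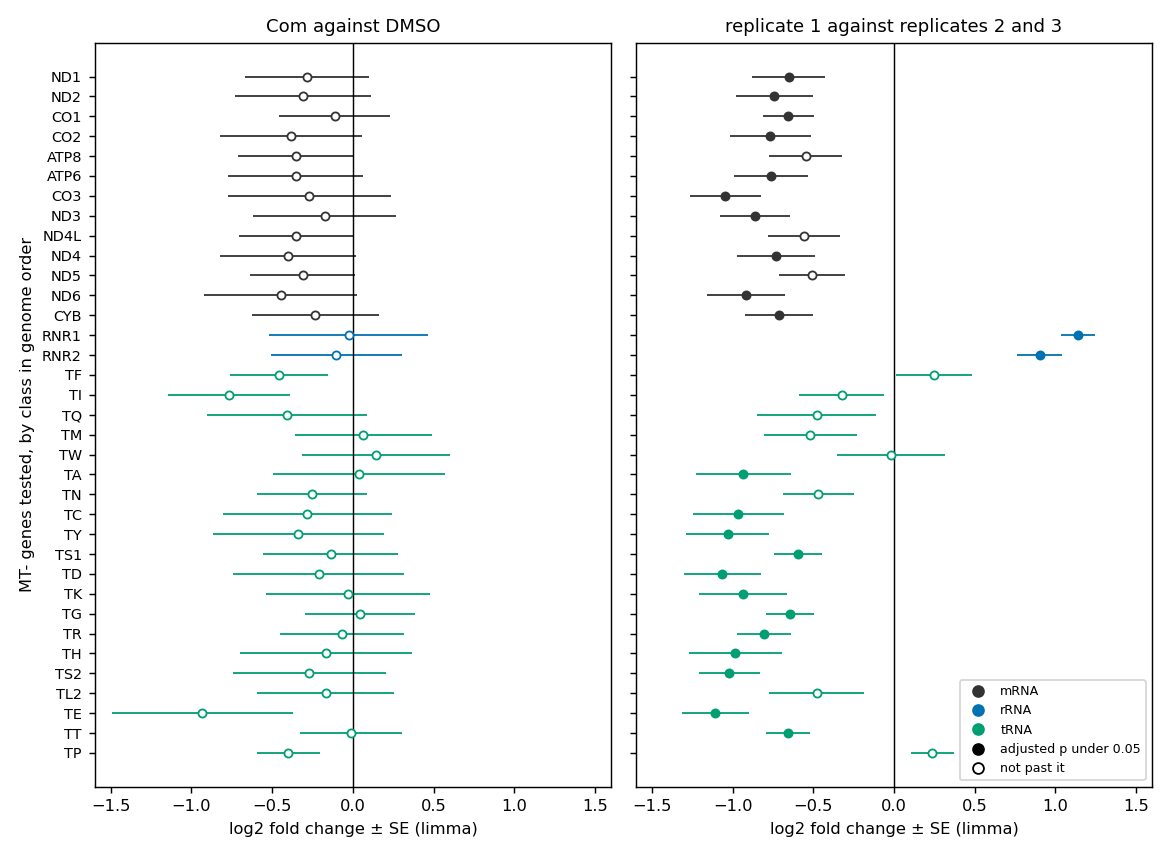
Log2 fold change with its SE (limma) of the 35 members tested, by class and in genome order, in Com against DMSO (left) and in replicate 1 against replicates 2 and 3 (right). Filled points have an adjusted p under 0.05, which are 0 on the left and 24 on the right, where the 2 rRNAs are above 0 and the 22 others below it.

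The make-up of the mRNA pool also differed in those 2 libraries. MT-CO1 took 43.2% of the summed mRNA FPKM in Gilteritinib replicate 1 and 44.997% in Com replicate 1, against 35.6% to 41.1% in the other 10. Complex V genes took 5.23% or less there, against 5.41% to 6.27%, and complex I genes 29.9% and 30.1%, against 29.9% to 35.4%. The complex III gene went opposite ways, with 8.11% in Gilteritinib replicate 1, the highest of the 12 libraries, and 7.05% in Com replicate 1, the lowest, against 7.23% to 7.96% in the other 10. MT-CO1 was thus less reduced than the other mRNAs in Gilteritinib, at a replicate ratio of 0.458, the top of the range. These shares are descriptions without a test.

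Copies of mitochondrial sequence in nuclear chromosomes can share reads with the members. The table lists 176 such pseudogenes by symbol, of which 2 had a mean FPKM of at least 10. MTND2P28, a copy of MT-ND2, averaged 46.5, and MTATP6P1, a copy of MT-ATP6, 36.8. Their ratios of replicate 1 to the other replicates were 0.378 and 0.351 in Gilteritinib and 0.399 and 0.431 in Com, beside 0.345 and 0.342, and 0.407 and 0.414, for MT-ND2 and MT-ATP6. In DMSO and Mito-Lipo the copies had 0.866 and 1.57 (MTND2P28) and 0.958 and 1.14 (MTATP6P1). The copies moved with their mitochondrial counterparts in the gilteritinib conditions, and how reads that fit both were assigned is not given in the sources used here. Values of MT-ND2 and MT-ATP6 are uncertain to that extent.

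The nuclear genes that make, cut and maintain mitochondrial RNA were read from 4 lists, and between conditions 0 of them passed (limma). In Mito-Lipo against DMSO the smallest p in the transcription list belonged to TFAM, which packages mitochondrial DNA and activates its promoters, at -0.23 (SE 0.08, limma adjusted p = 0.546), and to MRPL12, a ribosomal protein, at -1.20 (SE 0.47, adjusted p = 0.576). In the RNA processing list they belonged to ELAC2, the tRNA 3′ end nuclease, at -0.20 (SE 0.07, limma adjusted p = 0.536), and GTPBP3, a tRNA modification enzyme, at -0.30 (SE 0.13, adjusted p = 0.622). DNA2 of the replication list had -0.28 (SE 0.12), and of the biogenesis regulators GABPB1 had -0.13 (SE 0.09) and GABPA -0.20 (SE 0.15). MRPL12 was not low in Mito-Lipo alone, nor in replicate 1. Its FPKM was 20.5, 8.12 and 3.99 in Mito-Lipo replicates 1 to 3 and 21.5, 6.71 and 10.6 in Gilteritinib. It was 20.6 to 23.6 in DMSO and 22.9 to 26.1 in Com.

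In replicate 1 against replicates 2 and 3, where 38.3% of all genes passed, 6 of 11 genes for mitochondrial transcription rose and 0 fell. Of the RNA processing and decay genes tested, 28 of 30 listed, 11 rose and 2 fell. Of 13 DNA replication genes 3 rose and 2 fell, and of 6 biogenesis regulators 1 rose and 1 fell. TFB1M, the methyltransferase of MT-RNR1, rose by 0.31 (SE 0.04, limma adjusted p = 0.00125), TEFM, the elongation factor, by 0.28 (SE 0.06, adjusted p = 0.00647) and MTERF2 by 0.35 (SE 0.07, adjusted p = 0.00654). REXO2, which degrades short RNA, rose by 0.59 (SE 0.05), ANGEL2 by 0.38 (SE 0.05) and FASTKD1 by 0.27 (SE 0.04). RRM2B, a ribonucleotide reductase subunit that p53 induces, rose by 0.72 (SE 0.07), from a mean FPKM of 26.1 in replicates 2 and 3 to 43.9 in replicate 1, and DNA2 rose by 0.24 (SE 0.05), while RNASEH1, which removes RNA primers, fell by 0.34 on the log2 scale (SE 0.06). GABPA rose by 0.30 (SE 0.07), and PPRC1, a coactivator related to PGC-1, fell by 0.47 on the log2 scale (SE 0.09). The lists' medians were 0.22, 0.11, -0.04 and -0.03, beside 0.09 over all tested genes.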

How the data were processed

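RNA-seq was done on 12 libraries of MV4-11 cells, 3 per condition. The authors deposited 1 table of FPKM per gene. The submitters' processing notes name Bowtie 0.12.9, Cufflinks 2.1.1, HTSeq, DESeq2 and the mouse build mm10, while the gene identifiers are human. Strand setting and treatment of reads with several matches are not given in the sources used here. Of the identifiers, 41461 had a symbol, and positions and lengths of the 37 genes were taken from GENCODE release 29 (GRCh38). The table has 0 columns that could not be assigned to a sample.

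Values were taken to log2(FPKM + 1). The 18574 genes that reached an FPKM of 1 in 3 or more libraries were fitted with limma 3.58.1 in R 4.3.3, using a trend of variance on level, and p-values were adjusted by Benjamini-Hochberg (threshold 0.05). Fold changes are on this log2 scale, which understates changes of low genes. The comparisons between conditions used 1 mean per condition and no replicate number, so the difference of replicate 1 is part of their SE. Replicate contrasts used condition and replicate number, additive. Fragments were recovered as FPKM × length × depth, at a tolerance of 0.02 fragment beside rounding. Counting error exceeded the SD between replicates in 1 of 52 mRNA means, 0 of 8 rRNA means and 19 of 88 tRNA means. All 18 same-numbered pairs of libraries correlated in their deviations from the condition means (0.165 to 0.657). Deviations within a condition sum to 0, so a shift of replicate 1 alone would give this for all 3 numbers. Pairs with different numbers were not set beside them. The correlations therefore cannot show that the numbers pair the libraries.

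The members and lists, and the rule for named genes, were chosen with earlier results of these data known. The rule takes any MT- gene, up to 3 list genes with the smallest p past the threshold per comparison (otherwise the 2 smallest in Mito-Lipo against DMSO), and nuclear copies with a mean FPKM of at least 10. Some markers of other cell types are not reported here. On simulated data for 18574 genes, changes of 1 and 2 on the log2 scale were recovered at 85% and 97.4% for Com against DMSO. For replicate 1 it was 89.8% and 98.6%, and for the difference of the replicate 1 effect with and without gilteritinib 58% and 87.2%. The simulated libraries had no replicate difference, only the spread left after fitting condition and replicate number. In the data, the Com against DMSO fit carried that difference in its error. Its SE for the mRNAs were 0.33 to 0.51, against 0.21 to 0.33 with the replicate block. The 85% and 97.4% therefore overstate what could be found for the mRNAs between conditions. Alternatives were another pseudocount, other filters and scalings, no trend, the replicate block, only the libraries compared, and each library left out in turn.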

Additional observations from a re-analysis of the deposited data

How the results depend on the processing

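Between conditions, 0 members were called in the main analysis and in all 160 combinations of comparison and alternative setting, the leave-one-out fits included. At an unadjusted p under 0.05 (limma) these combinations were less even, with up to 10 members in one of them. The share of all genes at that level was not counted in the alternative settings, so the 10 cannot be set beside it. With the replicate number as a block, which treats same-numbered libraries as paired, 0 members were again called in each of the 6 comparisons and the interaction. The block did change the result for other genes. The smallest limma adjusted p of all genes went from 0.346 to 0.0201 in Com against Mito-Lipo and from 0.221 to 0.0182 in Gilteritinib against Mito-Lipo. In replicate 1 against replicates 2 and 3 the count of 24 members became 15 with no filter on low values (12 lower and 3 higher, of 37 tested). Leaving out 1 library gave 9 (without Com replicate 1) to 26 (without Mito-Lipo replicate 1), and 12 without Gilteritinib replicate 1. Of all genes, 5125, 6474 and 5640 passed in these fits, against 7123 in the main fit. Chosen after seeing the data, leaving out both replicate 1 libraries with gilteritinib gave 2, only the DMSO and Mito-Lipo libraries gave 0 (13 at an unadjusted p under 0.05), and only the Gilteritinib and Com libraries gave 27. These subsets have fewer libraries. Of all genes, 3005 passed with both replicate 1 libraries left out, 53 in DMSO and Mito-Lipo, and 3675 in Gilteritinib and Com. The contrast of 0 and 27 members is therefore not particular to them. For the 13 at an unadjusted p under 0.05, the share of all genes was not counted. The other settings gave 19 to 27 calls, with 19 under quantile normalization and 27 under median-ratio scaling, both of which moved the median log2 fold change of all genes from 0.09 to -0.01. In each scaling MT-RNR1 and MT-RNR2 stayed above 0 and all 13 mRNAs below 0. Single genes were followed for 11 members only (MT-CO1, MT-CO3, MT-CYB, MT-ND6, MT-ATP8, MT-RNR1, MT-RNR2, MT-TT, MT-TC, MT-TP and MT-TI). Of their values and the mRNA medians over all comparisons and settings, 2126 kept their direction and side of the threshold, 288 moved, 29 lost and 5 gained a call, and none called reversed. Depth limits the tRNA genes most, since MT-TF, MT-TV and MT-TL1 had 23, 12 and 5 fragments in all libraries together.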
